A study of Mus musculus with 6 samples.

Results

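The 9 genes described here encode small leucine-rich proteoglycans: decorin (Dcn), biglycan (Bgn), asporin (Aspn), lumican (Lum), fibromodulin (Fmod), PRELP (Prelp), osteomodulin (Omd), osteoglycin (Ogn) and podocan (Podn). They were taken by symbol from the tables of read counts, in which each was found among 25793 genes. All 9 also reached 1 CPM (counts-per-million of the library size after TMM scaling) in 1 or more libraries, as did 14810 genes in all, which are the genes compared below. The RNA came from primary mouse embryonic fibroblasts, the matrix-producing cells that grow out when a minced embryo is plated. Matings involved Sptbn1+/- and SMAD3+/- animals, embryos were taken at E13.5, and all cells were cultured with 10% fetal bovine serum and no further agent. The 6 genotypes, each with 1 library, were wild type, β2SP+/- and β2SP-/- (1 or 2 knockout alleles of Sptbn1, the gene of β2-spectrin, a protein of the membrane skeleton), SMAD3+/- and SMAD3-/- (1 or 2 knockout alleles of Smad3), and β2SP+/-; SMAD3+/-, called the double heterozygote. Which exons the knockouts lack, and whether a library pooled embryos, is not in the labels. Because no genotype was repeated, each comparison is one of libraries, with no replicate check.

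Small leucine-rich proteoglycans are secreted proteins whose curved core is built of leucine-rich repeats and which, in several members, carries chondroitin, dermatan or keratan sulfate chains. They bind collagen fibrils and set the width and spacing of fibrils in skin, tendon and cornea, and decorin, biglycan, fibromodulin and asporin also bind TGF-beta. SMAD3 is one of the transcription factors that TGF-beta receptors activate, and β2-spectrin is known as an adaptor for SMAD3 and SMAD4. By sequence the family falls into classes: Dcn, Bgn and Aspn form class I, Lum, Fmod, Prelp and Omd form class II, Ogn belongs to class III and Podn to class V.

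Since the mutated transcription factor binds DNA, the bases before the start sites of the members were searched for the SMAD box (CAGAC on either strand, so GTCTG when it lies on the opposite one), the AP-1 site (TGACTCA, which reads TGAGTCA on the opposite strand) and TATAAA, the letters of the TATA box, on the gene's own strand. RefSeq promoter sequences (build GRCm38.p6, the 250 bases before the start) were found for 7 of the 9 members, and Podn had 2 such windows. The 4 promoters with a match are shown 5′ to 3′ on the gene's strand, with the matches in capitals. Prelp and Fmod, which lie next to each other, hold SMAD boxes, and Aspn and Ogn, which lie in another cluster, hold TATAAA.
Prelp, chr1:133921402-133921651, minus strand: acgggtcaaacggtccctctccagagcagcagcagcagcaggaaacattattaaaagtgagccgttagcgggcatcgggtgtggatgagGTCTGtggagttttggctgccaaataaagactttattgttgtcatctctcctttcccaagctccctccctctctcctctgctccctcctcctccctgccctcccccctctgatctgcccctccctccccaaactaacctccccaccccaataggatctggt
Fmod, chr1:134037004-134037253, plus strand: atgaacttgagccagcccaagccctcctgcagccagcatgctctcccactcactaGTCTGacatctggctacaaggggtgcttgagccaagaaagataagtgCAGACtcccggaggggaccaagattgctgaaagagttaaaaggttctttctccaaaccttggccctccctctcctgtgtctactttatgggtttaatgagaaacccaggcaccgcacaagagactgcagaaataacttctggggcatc
Aspn, chr13:49544193-49544442, plus strand: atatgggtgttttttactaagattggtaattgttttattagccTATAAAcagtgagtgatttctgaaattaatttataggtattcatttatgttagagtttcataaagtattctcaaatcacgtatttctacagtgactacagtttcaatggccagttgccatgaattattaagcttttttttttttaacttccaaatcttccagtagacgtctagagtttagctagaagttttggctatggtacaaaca
Ogn, chr13:49607765-49608014, plus strand: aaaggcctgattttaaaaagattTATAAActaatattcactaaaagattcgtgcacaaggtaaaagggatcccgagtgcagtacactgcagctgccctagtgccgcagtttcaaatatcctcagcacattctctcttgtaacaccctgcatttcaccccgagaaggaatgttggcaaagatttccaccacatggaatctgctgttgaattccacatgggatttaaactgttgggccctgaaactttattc
The match in Prelp begins 161 bases before the start, the matches in Fmod 195 and 148 bases before it, and the TATAAA of Aspn and Ogn 207 and 227 bases before it. A SMAD box was present in 42.2% of 32851 RefSeq promoters cut to the same length, and 11.5% held 2 or more, so a single match is common. TATAAA was present in 7.59% and an AP-1 site in 4.46%. No AP-1 site was found in any of the 8 windows, and none of these motifs in those of Bgn, Omd and Podn. The motifs do not overlap one another. The matches are letters in a sequence and were not tested for binding.

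The libraries held between 6856680 and 31125055 counts on genes, and the libraries labelled SMAD3-/- and double heterozygote stood apart from the other 4. In those 2 libraries 80.1 and 81.2% of uniquely placed reads fell on genes, against 40.9 to 43.3% elsewhere, and their 18S ribosomal RNA Rn18s was at 349 and 1529 CPM against 64661 to 87249 CPM. The library labelled SMAD3+/- alone carried the female transcript Xist (2747 CPM, at most 16.3 elsewhere), so its comparisons also compare the sexes, and Bgn lies on the X chromosome. Of the targeted genes, Sptbn1 (listed as Spnb2) was at 1419 CPM in wild type, 1071 in β2SP+/-, 771 in β2SP-/-, 1556 in SMAD3+/-, 1022 in SMAD3-/- and 695 in the double heterozygote. Smad3 ran against the labels, with 53.3 CPM in wild type, 57.7 in β2SP+/-, 57.2 in β2SP-/-, 79.5 in SMAD3+/-, 106 in SMAD3-/- and 203 in the double heterozygote. A deletion of part of a gene may leave its total count in place, and every direction below is one between libraries as labelled. All 12 fibroblast markers were detected in every library. The summed level of 12 epithelial markers was 69.5 CPM in SMAD3-/-, against 6.72 to 29.4 CPM elsewhere. Krt18, Krt19 and Krt8 made up most of that sum, at 31.4, 31.1 and 4.97 CPM. Epcam and Cdh1 were at 0.222 and 1.02 CPM there, against 0.708 and 2.57 CPM in wild type. Krt5, Krt14, Esrp1 and Grhl2 had 0 counts in SMAD3-/-. The median log2 ratio of SMAD3-/- to wild type, over the 7 markers compared, was -1.32.

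Intervals in parentheses are exact 95% intervals of a ratio of counts (Clopper-Pearson), and cover counting error only. A gene was called higher or lower when the whole interval lay beyond 1.5-fold. Comparisons with wild type share the wild-type library. In bulk RNA, fewer cells of a type and less RNA per cell cannot be told apart.

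Across the 6 libraries, 6 of the 9 genes were highest in the library labelled double heterozygote (Dcn, Bgn, Aspn, Lum, Fmod and Ogn) and 6 were lowest in the library labelled SMAD3-/- (Dcn, Bgn, Lum, Fmod, Prelp and Podn). The wild-type library and those labelled β2SP+/- and β2SP-/- stayed within 1.00- to 2.04-fold of one another for each gene. Over all 6 libraries, of 2 kinds by the share of reads on genes, the span was wider, from 3.51-fold for Omd to 53.3-fold for Lum. Among wild type, both β2SP libraries and SMAD3+/-, which are alike in that share, the span was 1.27- to 9.397-fold, smallest for Bgn and largest for Aspn.

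**Figure D1:**
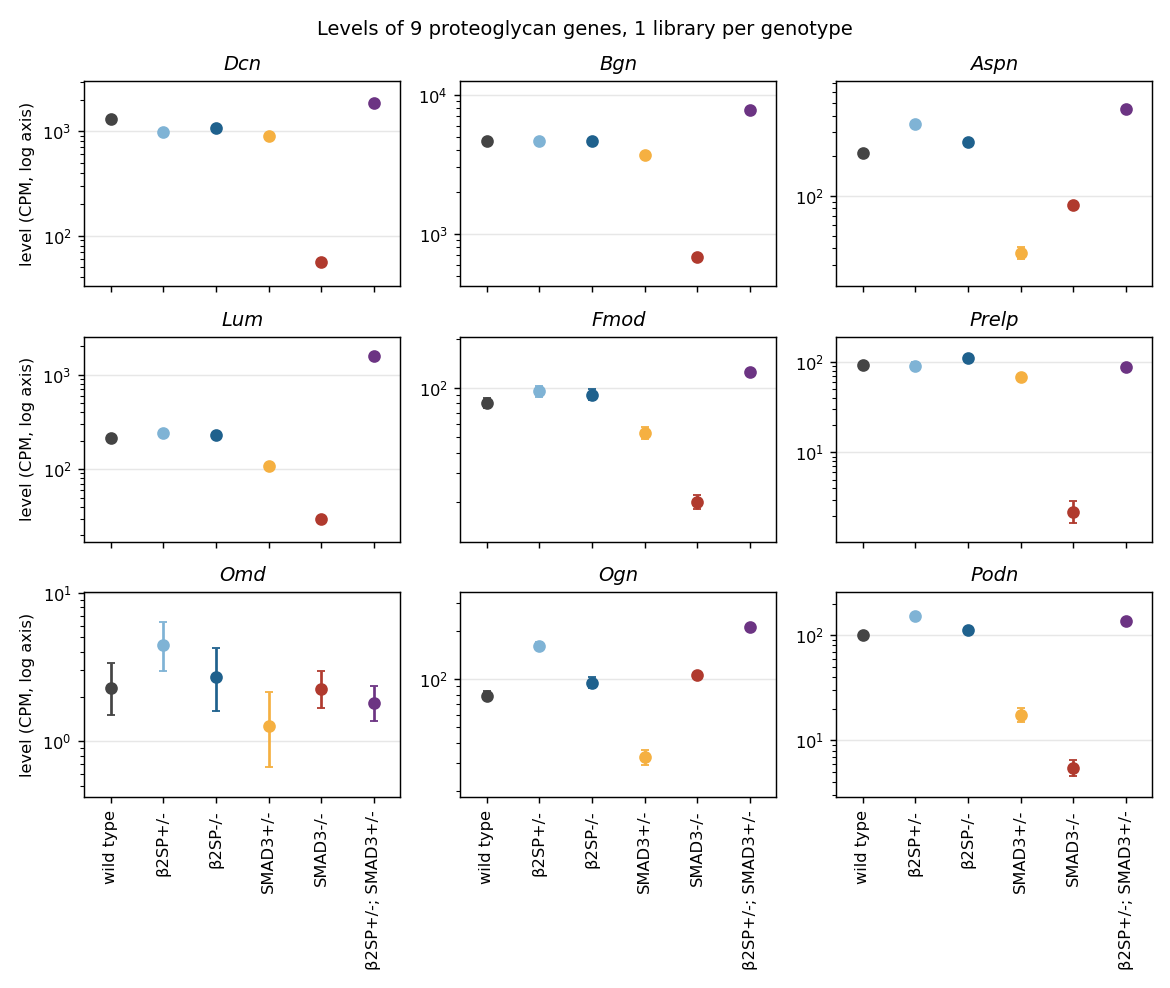
Level of each of the 9 genes (CPM, log axis, own scale per panel) in the 6 libraries, 1 point per library, with bars for the exact 95% Poisson interval of the count. In 6 panels the double heterozygote is the highest point, up to 7808 CPM for Bgn, and in 6 panels SMAD3-/- is the lowest, down to 2.22 CPM for Prelp.

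Decorin, which wraps collagen fibrils and binds TGF-beta, was at 1301 CPM in wild type, 985 in β2SP+/-, 1075 in β2SP-/-, 903 in SMAD3+/-, 55.2 in SMAD3-/- and 1885 in the double heterozygote. The library labelled SMAD3-/- lay far below the other 5, at 23.6-fold less than wild type (22.3 to 25.01). The other ratios of Dcn to wild type were within 1.5-fold: 0.757 (0.735 to 0.779) in β2SP+/-, 0.826 (0.803 to 0.850) in β2SP-/-, 0.694 (0.676 to 0.712) in SMAD3+/- and 1.45 (1.42 to 1.48) in the double heterozygote. All 5 neighbouring pairs in the order of Dcn levels differed beyond counting error.

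Biglycan, the closest relative of decorin and a ligand of Toll-like receptors when released from the matrix, was the most abundant member per kilobase of exon in every library. Its level was 4652 CPM in wild type, 4631 in β2SP+/-, 4642 in β2SP-/-, 3674 in SMAD3+/-, 681 in SMAD3-/- and 7808 in the double heterozygote. The first 3 of these did not differ beyond counting error, with ratios to wild type of 0.996 (0.982 to 1.01) and 0.998 (0.984 to 1.01). Bgn was 6.83-fold lower (6.71 to 6.96) in SMAD3-/- and 1.68-fold higher (1.66 to 1.69) in the double heterozygote.

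Asporin, a class I member without a glycosaminoglycan chain, had another order of levels: 208 CPM in wild type, 346 in β2SP+/-, 253 in β2SP-/-, 36.8 in SMAD3+/-, 85.2 in SMAD3-/- and 447 in the double heterozygote. Unlike Dcn and Bgn it was lowest in the library labelled SMAD3+/-, 5.66-fold below wild type (5.08 to 6.32). The ratio in SMAD3-/- was a 2.45-fold lower level (2.30 to 2.60). Aspn was 1.66-fold higher (1.57 to 1.76) in β2SP+/- and 2.14-fold higher (2.05 to 2.24) in the double heterozygote, while the 1.21-fold difference (1.14 to 1.29) in β2SP-/- was not called.

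Lumican, the keratan sulfate proteoglycan needed for corneal transparency, was at 211 CPM in wild type, 238 in β2SP+/-, 232 in β2SP-/-, 107 in SMAD3+/-, 29.4 in SMAD3-/- and 1565 in the double heterozygote. The last of these stood 7.41-fold above wild type (7.11 to 7.72) and 53.3-fold above SMAD3-/- (49.4 to 57.6), the widest gap of any member. Lum was 1.98-fold lower (1.84 to 2.13) in SMAD3+/- and 7.19-fold lower (6.60 to 7.85) in SMAD3-/-. The levels in β2SP+/- and β2SP-/- did not differ beyond counting error.

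Fibromodulin, which guides collagen cross-linking in tendon, was at 80.7 CPM in wild type, 94.8 in β2SP+/-, 90.6 in β2SP-/-, 52.6 in SMAD3+/-, 19.99 in SMAD3-/- and 124 in the double heterozygote. Its one called difference from wild type was in SMAD3-/-, at 4.04-fold lower (3.60 to 4.53). The 1.54-fold ratio (1.44 to 1.66) in the double heterozygote and the 1.53-fold lower level (1.38 to 1.71) in SMAD3+/- had intervals that reached below 1.5-fold.

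PRELP, a heparin-binding class II protein that links basement membranes to collagen, was at 91.7 CPM in wild type, 90.9 in β2SP+/-, 110 in β2SP-/-, 68.2 in SMAD3+/-, 2.22 in SMAD3-/- and 88.5 in the double heterozygote. Its level in the library labelled SMAD3-/-, from 50 counts, was 41.3-fold below wild type (31.1 to 56.0). The double heterozygote, wild type and β2SP+/- did not differ beyond counting error for Prelp. Prelp shares 350 exon bases, 9.68% of its exon length in GENCODE M21, with the antisense gene Gm15851. Gm15851 is not among the genes counted, and whether the counting used strand is not stated in the sources used here. Whether antisense reads of that stretch were counted as Prelp is therefore not known.

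Osteomodulin, the keratan sulfate proteoglycan of mineralised bone matrix, had few counts in every library. There were 26 counts (2.30 CPM, Poisson interval 1.502 to 3.37) in wild type, 30 (4.42 CPM) in β2SP+/-, 18 (2.69 CPM) in β2SP-/-, 13 (1.26 CPM) in SMAD3+/-, 51 (2.27 CPM) in SMAD3-/- and 57 (1.82 CPM) in the double heterozygote. No neighbouring pair in the order of its levels differed beyond counting error. Its ratio in SMAD3-/- was 0.985 (0.603 to 1.65), and on total counts it was 1.05 (0.642 to 1.75), so no direction can be read for Omd there.

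Osteoglycin, a class III protein found in bone, cornea and vessel wall, was at 78.6 CPM in wild type, 160 in β2SP+/-, 95.2 in β2SP-/-, 32.6 in SMAD3+/-, 105 in SMAD3-/- and 213 in the double heterozygote. It was the one member above 5 CPM whose level in SMAD3-/- was not below wild type, at 1.34-fold (1.24 to 1.45), a difference that was not called. Ogn was 2.04-fold higher (1.86 to 2.23) in β2SP+/-, 2.71-fold higher (2.53 to 2.91) in the double heterozygote and 2.42-fold lower (2.13 to 2.75) in SMAD3+/-. Between the β2SP libraries it was 1.68-fold lower (1.53 to 1.86) in β2SP-/- than in β2SP+/-.

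Podocan, first described in the podocytes of the kidney and also made by smooth muscle and fibroblasts, was at 101 CPM in wild type, 151 in β2SP+/-, 113 in β2SP-/-, 17.5 in SMAD3+/-, 5.51 in SMAD3-/- and 135 in the double heterozygote. Both libraries labelled with SMAD3 alone lay below the other 4, at 5.78-fold (4.94 to 6.80) and 18.4-fold (15.3 to 22.4) less than wild type. Its 1.49-fold ratio (1.37 to 1.62) in β2SP+/- and 1.33-fold ratio (1.25 to 1.42) in the double heterozygote were not called.

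**Figure D2:**
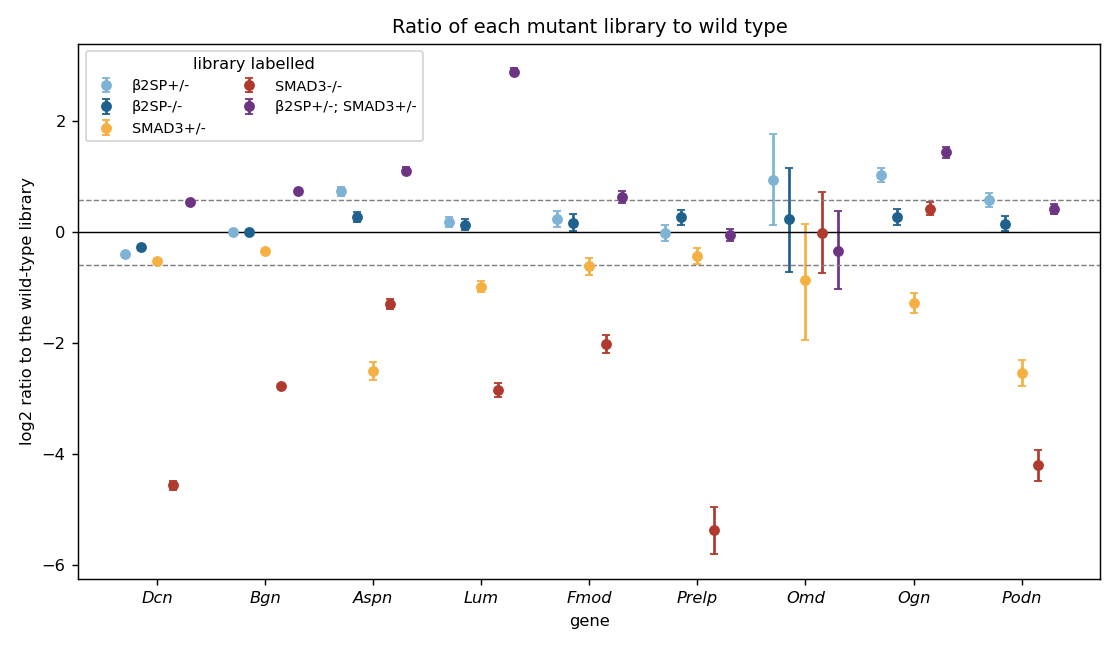
Log2 ratio of each mutant library to wild type for the 9 genes, with bars for the exact 95% interval of the count ratio and dashed lines at 1.5-fold either way. The SMAD3-/- points of 7 genes lie wholly below the lower line, and the Lum point of the double heterozygote is the highest, at a ratio of 7.41.

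Counted by comparison, the members were set against the share of all 14810 genes called by the same rule. In β2SP+/- against wild type, 2 of 9 members were higher (Aspn and Ogn) and 0 lower, where 0.635% of all genes were called higher and 1.2% lower. In β2SP-/- none of the 9 was called in either direction, against 0.648% higher and 0.412% lower of all genes. The members' median log2 ratios in these libraries were 0.23 and 0.17, next to -0.0055 and -0.0015 over all genes.

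The library labelled SMAD3+/- held 4 lower members (Aspn, Lum, Ogn and Podn) and 0 higher, where 1.64% of all genes were called higher and 4.46% lower. All 9 ratios were below 1, with a median log2 of -0.84 against 0.01 over all genes. In SMAD3-/- against wild type, 7 members were lower (all but Omd and Ogn) and 0 higher, with a median log2 of -2.77 against 0.05. The same rule called 24.2% of all genes higher and 25.2% lower in that library. In the double heterozygote, 4 members were higher (Bgn, Aspn, Lum and Ogn) and 0 lower, against 21.6% and 19.1% of all genes, and the medians were 0.63 and 0.06. SMAD3-/- and the double heterozygote also differ from wild type in the share of reads on genes and in Rn18s. In both comparisons the genotype and those differences between libraries cannot be told apart.

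The intervals were also widened by the spread between libraries from the dose fit described below. With the spread of all 6 libraries, 0 members were called higher in β2SP+/- (0.0743% of all genes) and 2 lower in SMAD3+/- (Aspn and Podn; 0.5%). In SMAD3-/- 5 were lower (Dcn, Bgn, Lum, Prelp and Podn; 10.2%), and in the double heterozygote 1 was higher (Lum; 2.34%). With the smaller spread, from a fit to wild type, both β2SP libraries and SMAD3+/-, the counts were 0, 3, 7 and 3. The shares of all genes were 0.398%, 3.13%, 20.9% and 14.6%. That fit had 1 residual degree of freedom and fitted SMAD3+/- exactly. Its spread therefore comes from wild type and the β2SP libraries only.

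Among libraries alike in their share of reads on genes, the pairs allowed 2 further comparisons. The second pair, SMAD3-/- and the double heterozygote, was not alike in other ways. Reads marked ambiguous made up 0.0251 and 0.827% of their records, the lowest and highest shares of all libraries. Their Rn18s was at 349 and 1529 CPM. Between β2SP-/- and β2SP+/-, 0 members were higher and 1 (Ogn) lower in β2SP-/-, with 0.925% of all genes called higher and 0.378% lower. Ogn was not called there with either widened interval (0.0338 and 0.169% of all genes lower). Between SMAD3-/- and the double heterozygote, both with the higher share of reads on genes, 0 members were higher and 8 (all but Omd) lower in SMAD3-/-, against 19.8% and 23.4% of all genes. The folds in that pair were 34.2 (32.3 to 36.2) for Dcn, 39.8 (30.1 to 53.8) for Prelp and 24.5 (20.5 to 29.6) for Podn, and 2.02 (1.93 to 2.12) for Ogn. With the spread of all 6 libraries 6 members stayed lower (without Aspn and Ogn; 7.37% of all genes), and with the smaller spread 7 (without Ogn; 18.2%).

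The double heterozygote was then set against the level its single heterozygotes would give if their ratios to wild type multiplied. Of the 9 members, 7 were called above that level (Dcn, Bgn, Aspn, Lum, Fmod, Ogn and Podn) and 0 below, against 18.5% of all genes above and 16.5% below. Lum was at 1565 CPM where the multiplied level was 120 CPM, 12.98-fold higher (11.9 to 14.2). Aspn was 7.30-fold higher (6.50 to 8.21) and Podn 5.16-fold higher (4.35 to 6.12), with observed and multiplied levels of 447 and 61.1 CPM and of 135 and 26.1 CPM. Both had been low in SMAD3+/- and near or above wild type in the double heterozygote. The departures of Ogn, Dcn, Bgn and Fmod were 3.21-fold (2.78 to 3.69), 2.76-fold (2.66 to 2.86), 2.13-fold (2.10 to 2.17) and 2.01-fold (1.76 to 2.30). Those of Prelp, at 1.31-fold (1.15 to 1.49), and Omd, at 0.731-fold (0.332 to 1.61), were not called. With the spread of all 6 libraries only Lum was called (1.73% of all genes above), and with the smaller spread 5 were (Dcn, Aspn, Lum, Ogn and Podn; 11.9%). The double heterozygote alone among these 4 libraries has the higher share of reads on genes. For it, the genotype and that difference between libraries cannot be told apart. Every departure also uses SMAD3+/-, the library that alone carried Xist, so the sexes enter it too. Podn was 5.78-fold below wild type in SMAD3+/- and 1.33-fold above it in the double heterozygote. For Aspn these folds were 5.66 and 2.14.

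**Figure D3:**
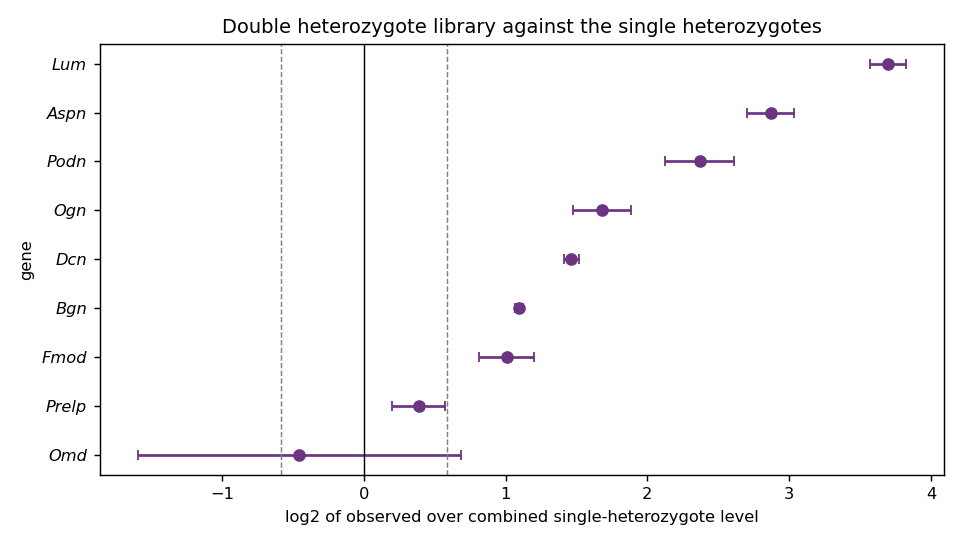
Observed level in the double heterozygote over the level obtained by multiplying the ratios of the single heterozygotes, on a log2 axis, for the 9 genes in order, with bars for the 95% counting error and dashed lines at 1.5-fold. Lum is highest at 12.98-fold, and the bars of Prelp and Omd cross a dashed line or end short of it.

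A fit across all 6 libraries to the number of labelled mutant alleles called none of the members. In edgeR's quasi-likelihood test with Benjamini-Hochberg adjustment over 14085 genes, 0 of 9 members and 0% of all genes passed for Sptbn1 dose, and likewise 0 of 9 and 0% for Smad3 dose. At an unadjusted p under 0.05, 0 members passed for either gene, next to 21 and 3404 of all genes. Per Smad3 allele the log2 estimates ran from -1.54 for Prelp (adjusted p = 0.302) to 0.26 for Ogn (adjusted p = 0.722), with 7 members below 0 and 2 above. Podn had the smallest adjusted p of the members, 0.229, with an estimate of -1.48. DESeq2's Wald test gave Podn an estimate of -1.55 and an adjusted p of 0.0480 and passed no other member, where it passed 14.5% of all genes. Both libraries with the higher share of reads on genes carry labelled Smad3 mutant alleles, and of the other 4 only SMAD3+/- does. The Smad3 estimates therefore mix allele dose with that difference between libraries. Per Sptbn1 allele all 9 estimates were above 0, from 0.17 to 1.55, with unadjusted p from 0.206 to 0.756. The β2SP libraries did not all share this sign. Dcn, with an estimate of 0.31, was at 0.757 and 0.826 times wild type in β2SP+/- and β2SP-/-. Bgn, with 0.37, was at 0.996 and 0.998 times. The other members were above wild type in β2SP-/-, and the estimates also draw on the double heterozygote. The fit across all 6 libraries had 3 residual degrees of freedom and a coefficient of variation between libraries of 0.467. The fit to the 4 libraries alike in their share of reads on genes gave 0.112. It had 1 residual degree of freedom, which came from wild type and the β2SP libraries.

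The members' summed level was 6727 CPM in wild type, 6702 in β2SP+/-, 6613 in β2SP-/-, 4893 in SMAD3+/-, 986 in SMAD3-/- and 12268 in the double heterozygote. As a share of all counts on genes this was 0.667, 0.661, 0.645, 0.482, 0.104 and 1.24%. Bgn made up 63.6 to 75.1% of the sum in each library, so the sum mostly follows Bgn. The shares of other members in the whole sum, Bgn included, also differed in the 2 libraries that stood apart. Ogn made up 10.7% in SMAD3-/- against 0.665 to 2.39% elsewhere, and Aspn 8.64% against 0.753 to 5.16%. Lum made up 12.8% in the double heterozygote against 2.18 to 3.56% elsewhere. The ratio of Dcn to Bgn counts was 0.0810 in SMAD3-/- and 0.213 to 0.280 in the other 5 libraries. Per kilobase of exon (GENCODE M21 exon union) the order in wild type was Bgn at 763 CPM per kb, Dcn at 223, Aspn at 88.5, Lum at 86.3, Ogn at 30.6, Prelp at 25.4, Fmod at 24.4, Podn at 23.8 and Omd at 1.02. In the double heterozygote Lum, at 639 CPM per kb, was above Dcn, at 323.

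**Figure D4:**
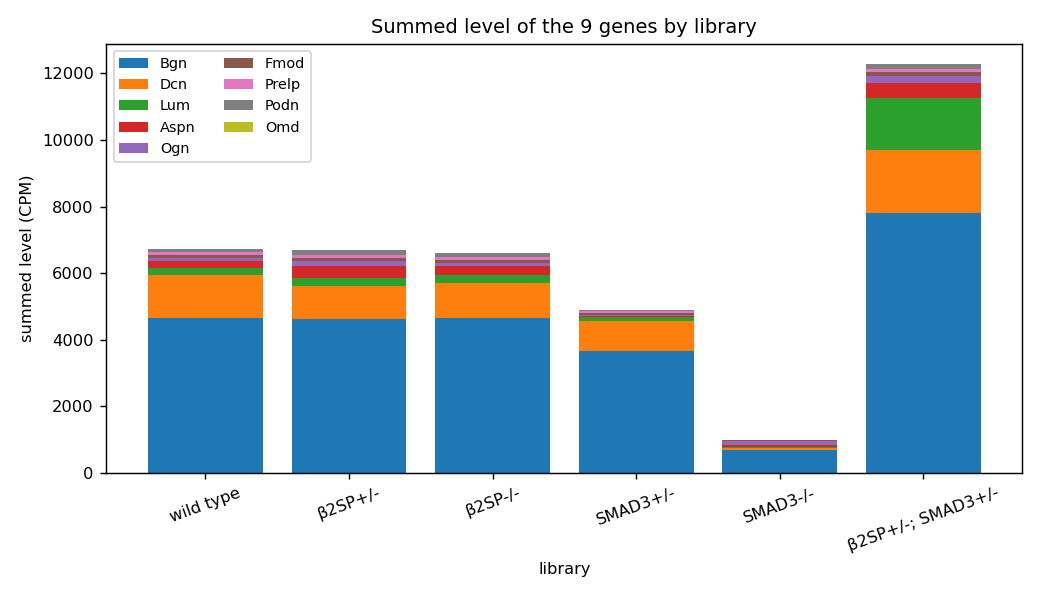
Summed level of the 9 genes (CPM) in each library as stacked bars that start at 0, with 1 colour per gene. The bar of SMAD3-/- reaches 986 CPM and that of the double heterozygote 12268 CPM, with Bgn as the largest block in all 6.

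Across the 6 libraries, log2(CPM + 1) of the members fell into unlike patterns. Pearson's r, given as a description over 6 points that share library make-up and depth, was 0.99 for Dcn and Bgn, 0.98 for Dcn and Prelp, 0.97 for Bgn and Fmod and 0.96 for Fmod and Podn. Aspn went with Ogn (r = 0.87) and with Podn (r = 0.84). Ogn had r of 0.08 with Dcn and 0.01 with Prelp. Among 8761 genes at 10 CPM or more on average, the gene outside the family most like Dcn was Parp14 (r = 0.999) and that most like Bgn was Dopey2 (r = 0.9998). Aspn was most like Serpina3n (r = 0.99), an inhibitor of serine proteases, which was at 167 CPM in wild type, 14.1 in SMAD3+/- and 449 in the double heterozygote. Ogn was most like Fam114a2 (r = 0.99) and Mest (r = 0.97). The pattern of Ogn and Aspn was rare, with 12 and 18 genes at r above 0.95, and that of Dcn and Prelp common, with 373 and 429.

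Of the members, 7 lie in family clusters on 3 chromosomes, and neighbours did not always share a pattern. On chromosome 10 the RefSeq order is Dcn, Lum, Kera and Epyc. Keratocan (Kera), a corneal relative of lumican, and epiphycan (Epyc), a cartilage protein of class III, were low, at 0.619 and 1.24 CPM in wild type and 2.64 and 6.24 CPM in the double heterozygote. Like Lum both were called higher there, at 4.27-fold (1.98 to 10.9) and 5.04-fold (2.93 to 9.39), while Dcn at the end of the cluster was at 1.45-fold. Their levels in SMAD3-/- were 0.133 and 0.355 CPM.

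On chromosome 13 the order is Ecm2, Aspn, Omd and Ogn. Ecm2, a larger matrix protein with leucine-rich repeats, was at 5.22 CPM in wild type and 0.400 in SMAD3-/-, 13.1-fold lower (6.43 to 29.95). In that library the cluster thus held a gene 13.1-fold below wild type, Aspn 2.45-fold below, and Omd and Ogn at 0.985 and 1.34 times its level. Nol8, the next gene outside the family, was at 49.1 CPM in wild type and 44.5 in SMAD3-/-. On chromosome 1 Optc, Prelp and Fmod lie in order. Prelp and Fmod were 41.3- and 4.04-fold lower in SMAD3-/-. Opticin (Optc), an eye protein, was at 1.15 CPM in wild type and 1.82 in SMAD3-/-, a ratio of 1.58 (0.832 to 3.22). The gene beyond Fmod, Btg2, was at 32.3 and 78.0 CPM in these 2 libraries.

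**Figure D5:**
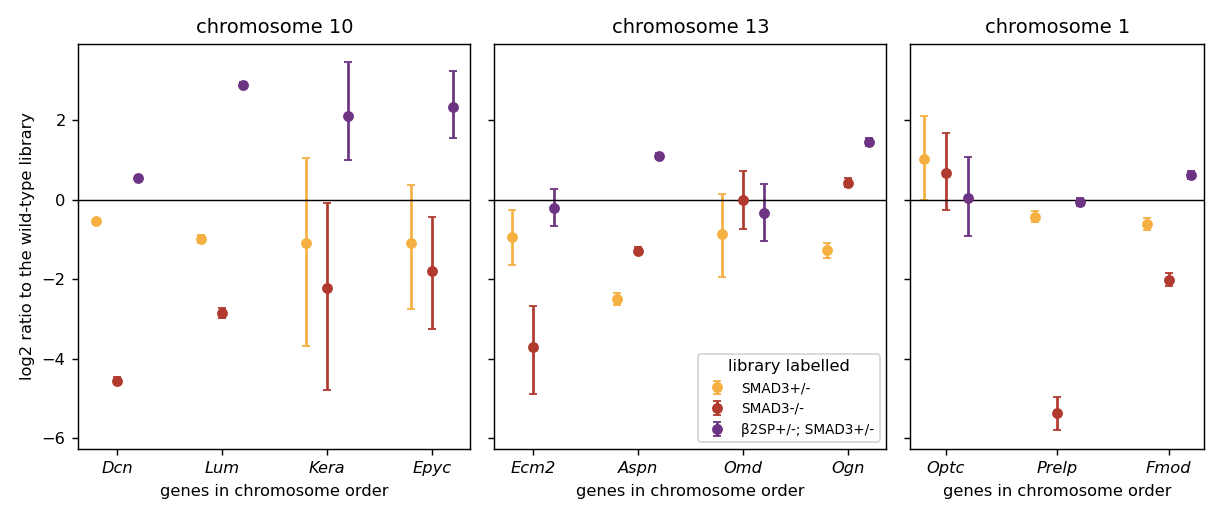
Log2 ratio to wild type of the family genes on 3 chromosomes, in chromosome order and not to distance, in the libraries labelled SMAD3+/-, SMAD3-/- and double heterozygote, with bars for the exact 95% interval of the count ratio. On chromosome 10 all 4 double-heterozygote points lie above 0 and all 4 SMAD3-/- points below, and on chromosome 13 the SMAD3-/- points run from Ecm2, 13.1-fold lower, to Ogn, 1.34-fold higher.

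Among the other 9 genes of the family, 7 reached 1 CPM and none was called in β2SP+/-, β2SP-/- or SMAD3+/-. Tsukushi (Tsku), a secreted inhibitor of BMP and Wnt signals, was at 34.9 CPM in wild type, 29.7 in β2SP+/-, 35.0 in β2SP-/-, 36.4 in SMAD3+/-, 76.1 in SMAD3-/- and 125 in the double heterozygote. It was thus higher in both libraries that stood apart, at 2.18-fold (1.96 to 2.44) and 3.58-fold (3.22 to 3.98). The podocan-like gene Podnl1 was at 7.43 CPM in wild type and 3.73 to 13.4 CPM elsewhere. Chadl reached 1.43 CPM, and Chad and Nyx stayed at or below 0.354 and 0.442 CPM. Nyx had 0 counts in wild type, where the floor of 3 counts is 0.265 CPM, and Chad 0 in SMAD3-/-, where it is 0.133 CPM.

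Genes of chondroitin and dermatan sulfate synthesis, the chains that Dcn and Bgn carry, were called in both directions in the 2 libraries that stood apart. Of 26 such genes compared, 0 were called in β2SP+/-, 1 lower in β2SP-/- (Xylt1, which starts the chain) and 2 lower in SMAD3+/-. In SMAD3-/- 12 were higher and 4 lower, and in the double heterozygote 12 were higher and 2 lower, with median log2 ratios of 0.48 and 0.77 next to 0.05 and 0.06 over all genes. Over all genes, 24.2% were called higher and 25.2% lower in SMAD3-/-, and 21.6% and 19.1% in the double heterozygote. In β2SP-/- 0.412% and in SMAD3+/- 4.46% of all genes were called lower. Chpf, which extends the chain, was 3.46- and 5.25-fold higher, and Dse, which turns chondroitin into dermatan sulfate, 2.84- and 3.17-fold. Chst7, a sulfotransferase, was 18.3-fold (7.69 to 57.0) and 13.2-fold (5.54 to 41.1) higher, over 5 counts in wild type. Of 7 keratan sulfate genes, 1 was higher and 3 lower in each of these libraries.

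Collagens and other fibril components, on which the members act, were also compared. Of 20 genes, 1 was higher and 7 lower in SMAD3+/-, 4 higher and 8 lower in SMAD3-/-, and 14 higher and 3 lower in the double heterozygote, with 1 higher in each β2SP library. The shares of all genes higher and lower were 1.64 and 4.46% in SMAD3+/-, and those just given for SMAD3-/- and the double heterozygote. In β2SP+/- and β2SP-/- 0.635 and 0.648% of all genes were called higher. In SMAD3-/- the collagen XII and XIV genes Col12a1 and Col14a1 were 6.74- and 7.29-fold lower. In the double heterozygote Col5a3 was 13.9-fold higher, and Comp, a cartilage and tendon protein, 79.3-fold (27.0 to 386), over 3 counts in wild type. Col12a1 was lower there too, by 2.91-fold. Between SMAD3-/- and the double heterozygote, 18 of the 20 were lower and 2 higher in SMAD3-/-, against 23.4 and 19.8% of all genes.

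Among 26 ligands, receptors and processing enzymes of the family, 2 were higher and 8 lower in SMAD3+/-, 4 higher and 16 lower in SMAD3-/-, and 8 higher and 5 lower in the double heterozygote. In each β2SP library 1 was lower. Of all genes, 1.64% were called higher and 4.46% lower in SMAD3+/-, and 24.2% and 25.2% in SMAD3-/-. In the double heterozygote the shares were 21.6% and 19.1%. In β2SP+/- and β2SP-/- 1.2 and 0.412% of all genes were called lower. Mmp13, a collagenase that cleaves fibromodulin and biglycan, was 2.20-fold lower in β2SP+/-, 2.37-fold in β2SP-/-, 6.32-fold in SMAD3+/- and 89.4-fold in SMAD3-/-. In the double heterozygote Mmp13 was at 401 CPM, against 278 in wild type. Tlr2, a receptor of biglycan, was 8.63-fold lower in SMAD3-/- and 11.8-fold higher in the double heterozygote. Met, a receptor to which decorin binds, was 2.08-fold higher in SMAD3+/- and 3.98-fold higher in SMAD3-/-. Of 24 other proteoglycans, 13 were lower and 5 higher in SMAD3-/-, and 7 lower and 9 higher in the double heterozygote. They stand next to the same shares of all genes.

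Cell-type markers also differed between these libraries. The 12 fibroblast markers summed to 27311 to 32518 CPM in wild type, both β2SP libraries and SMAD3+/-, 17131 in SMAD3-/- and 45178 in the double heterozygote. Col1a1, Col1a2 and Fn1, at 14982, 12344 and 9501 CPM, made up most of the sum in the double heterozygote. There 3 of the 12 were called higher (Pdgfra, Col1a2 and Col1a1) and 1 lower (Thy1, by 2.57-fold), next to 21.6 and 19.1% of all genes. In SMAD3-/- 7 of the 12 were lower, among them Thy1 by 5.15-fold, Fn1 by 4.85-fold and Col1a1 by 3.22-fold. The 2 called higher were Vim, by 2.20-fold, and S100a4, by 1.97-fold. Of all genes, 24.2% were called higher and 25.2% lower in SMAD3-/-, which also applies to the lists below. All 16 macrophage and leukocyte markers were called lower in SMAD3-/-, where they summed to 67.7 CPM, with Lyz1 at 0, against 1663 to 2617 CPM in the other 5 libraries. Skeletal and smooth muscle markers summed to 5279 CPM in SMAD3-/-, with 7 of 8 called higher and Pax7 at 0, against 1647 to 3515 CPM elsewhere. Acta2 and Tagln, at 3141 and 1769 CPM, made up most of that sum. Myog, Actc1 and Myh3 were low there, at 2.35, 6.31 and 4.31 CPM. Tendon markers, a list that holds Kera, summed to 96.3 CPM in SMAD3-/-, 347 in the double heterozygote and 156 to 207 elsewhere. Of the 6, 3 were lower in SMAD3-/- (Egr1, Mkx and Thbs4) and 2 higher, Scx by 3.67-fold and Tnmd by 2.57-fold. In the double heterozygote 4 of the 6 were higher, next to 21.6% of all genes. The part of these markers in the members' levels was not tested.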

How the data were processed

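Total RNA was extracted with TRIZOL and 1 ug entered an Illumina TruSeq RNA kit, per the labels' protocols. The authors deposited a table of raw read counts per gene for each library, with no scaling, and 5 summary lines that were left out. Reads on no gene made up 11.9 to 32.6% of records, reads with several placements 32.5 to 47.1% and ambiguous reads 0.025 to 0.827%. Per the submitters' processing notes, the genome build was mm9, and the tools include HTSeq, DESeq2, TopHat2 2.0.10, Trimmomatic and FastQC. Their roles, the annotation and the counting mode are not given in the sources used here.

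Libraries were scaled by TMM (edgeR 4.0.16, R 4.3.3, limma 3.58.1). Ratios carry exact Clopper-Pearson 95% intervals (scipy 1.17.1). As reads carry no molecular identifiers and may be copies of a molecule, the intervals cover counting error only. Pairs of libraries have no p-value. The departure of the double heterozygote was computed on log2 levels after adding 0.5 counts, as were the median log2 ratios. The allele-dose fit used edgeR's quasi-likelihood test with 2 numeric terms over genes at 1 CPM in 2 or more libraries and a threshold of 0.05. Alternatives were DESeq2 1.42.0, other scalings, filters and thresholds, intervals widened by the spread between libraries, and the fit without each library. Pair and dose rules were tested on simulated data.

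All members and family genes are reported. From other lists, at most 3 called genes per direction and comparison were eligible, by the interval bound nearest 1-fold, along with chromosome neighbours and the 2 genes most like each member. Members and lists were chosen with earlier results of these data known. Fibroblast, leukocyte, muscle, tendon and epithelial markers came from fixed lists. Lists of endothelial, neural crest and glial, cartilage and bone, and mesothelial and gonadal markers also held called genes and are not described.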

Additional observations from a re-analysis of the deposited data

How the results depend on the processing

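The call of each member held in all 5 comparisons with wild type under DESeq2 size factors, total counts, TMM without structural RNA and histone genes, and no filter. The direction held too except for Omd in SMAD3-/-, which was not called and went from 0.985 to 1.05 on total counts and 1.002 without structural RNA and histone genes. A filter of 5 CPM drops Omd and changed no call of the other 8. With a 2-fold threshold, the count of called members in β2SP+/- against wild type went from 2 to 0, and in β2SP-/- against β2SP+/- from 1 to 0. Both also became 0 with intervals widened by the dispersion of the 4 libraries or of all 6 libraries. The 2-fold threshold also took SMAD3+/- from 4 to 3 lower members (without Lum). It took the double heterozygote from 4 to 3 higher members (without Bgn) and the departures from 7 to 6 (without Fmod). The 7 lower members in SMAD3-/- stayed called at 2-fold. Widening by the dispersion of all 6 libraries left 2 lower members in SMAD3+/- (Aspn and Podn), 5 in SMAD3-/- (Dcn, Bgn, Lum, Prelp and Podn), 1 higher member in the double heterozygote (Lum) and 1 departure (Lum), from 4, 7, 4 and 7. Among all genes, widening by all 6 libraries left 11 higher and 10 lower in β2SP+/- (from 94 and 177), 8 and 4 in β2SP-/- (from 96 and 61), 23 and 74 in SMAD3+/- (from 243 and 660), 375 and 1516 in SMAD3-/- (from 3586 and 3730), 347 and 729 in the double heterozygote (from 3201 and 2826) and 256 and 438 departures (from 2746 and 2442). Between SMAD3-/- and the double heterozygote 8 lower members became 7 at 2-fold and with the dispersion of the 4 libraries (without Ogn), and 6 with that of all 6 (without Aspn and Ogn). No called member reversed its direction. For Smad3 dose, DESeq2's Wald test called 1 member (Podn) and 2049 of all genes, the fit without the other gene 0 members and 676 genes, against 0 and 0 in edgeR's quasi-likelihood test; leaving out each library in turn gave 0 to 0 members. The number of members highest in the double heterozygote was 6 under each scaling, an alternative chosen after seeing the data. No paired analysis was possible because each genotype has 1 library and the labels give no replicate numbers. Depth limits Omd, Kera, Epyc, Optc, Chad, Chadl and Nyx, and the wild-type levels of Comp and Chst7, each with few counts.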
